A study of Homo sapiens with 8 samples.

Results

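The 39 genes described here are markers of the germ layers and early lineages that human embryonic stem cells (hESCs) can form. They were taken as a list of gene symbols that was chosen with earlier results of these data known. The symbols were looked up by Ensembl identifier among the 57773 genes of the RNA-seq count files, and 39 of 39 were found. Grouped by the lineage they are commonly used to mark, 7 are neural, 9 neural crest, 6 primitive streak and early mesoderm, 5 later mesoderm, 7 endoderm and 5 trophectoderm or amnion. RNA-seq had been carried out on the hESC line H9, a widely used line derived from a blastocyst, in 4 conditions with 2 replicates each. WT cells were untreated and carried an HA tag on CHD7, a chromatin remodeler of the chromodomain family. CHD7 knockout cells were untreated and CHD7 -/-. HERVH knockdown cells had the WT genotype, CHD7-HA, and had been exposed for 24 h to LNA-GapmeRs, antisense oligonucleotides that direct cleavage of RNA, here aimed at the RNA of the endogenous retrovirus family HERVH. HERVH element deleted cells were untreated and lacked 1 HERVH element on chromosome 2. WT cells treated with a control oligonucleotide were not analysed here, so HERVH knockdown and exposure to an oligonucleotide cannot be told apart. The study used edited clones, and the labels do not tie a library to a clone. Nothing in the labels says that the 2 libraries of a condition came from separate cultures, so the p-values measure only the spread between these libraries, which may be technical.

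hESCs express a core set of pluripotency factors and keep most lineage regulators silent or at a very low level until signals such as BMP, Nodal, WNT or FGF drive them toward a fate. Many of the listed genes encode transcription factors that specify a germ layer, such as the T-box factors TBXT and EOMES in the primitive streak or GATA4, GATA6 and SOX17 in endoderm. Others encode structural or surface proteins, such as NES and TUBB3 in neural cells. Several are known to be transcribed already in undifferentiated hESCs, among them FOXD3.

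Libraries held 14802049 to 23156445 reads counted on genes. A gene with at most 3 counts in a library was taken to be at the counting floor there, which corresponded to 0.128 to 0.218 CPM after TMM scaling, where CPM is the count relative to library size. This floor covers counting error only. The 10 pluripotency genes examined, which include POU5F1, SOX2 and NANOG, had mean levels of 77.8 to 2132 CPM in WT cells, and their smallest FDR against WT was 0.108 in CHD7 knockout, 0.132 in HERVH knockdown and 1 in HERVH element deleted cells (edgeR quasi-likelihood test). CHD7 itself was counted 14098 and 13888 times in WT and 4269 and 3667 times in CHD7 knockout cells, which gave a log2 difference of -1.72 (SE 0.14, FDR = 2.25e-05, edgeR). The HERVH knockdown replicates differed most from each other. Their median SD of log2 CPM was 0.246 over 10904 genes, against 0.0757 to 0.118 in the other conditions, and the difference between them followed GC content across genes (Spearman's rho 0.738 over 10742 genes, a description without a test). In HERVH knockdown replicate 2 the 10 most abundant genes took 8.87% of the counts, and in the other libraries 4.09% to 5.08%.

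Nearly as many lineage markers were too low to test (19) as were tested (20). Of all 57773 genes counted, 23474 were tested in the same fit. In these bulk libraries, fewer cells of a type and less RNA per cell cannot be told apart. Of the 39 genes, 5 were at the floor in all 8 libraries: HAND2 and FOXF1, regulators of lateral mesoderm, GATA4 and GATA6, zinc finger factors of endoderm and heart, and TFAP2B, a neural crest factor that was listed at 0 in every library. Another 14 had more than 3 counts in at least 1 library but did not pass edgeR's expression filter, and the highest count among all 19 genes not tested was 12. The remaining 20 passed the filter and were tested. A gene can pass through a single condition in which it is high, so counts among the 20 describe tested genes and not the list as a whole. By condition, 14 of the 39 were at the floor in both WT libraries, 13 in CHD7 knockout, 15 in HERVH knockdown and 17 in HERVH element deleted cells.

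**Figure D1:**
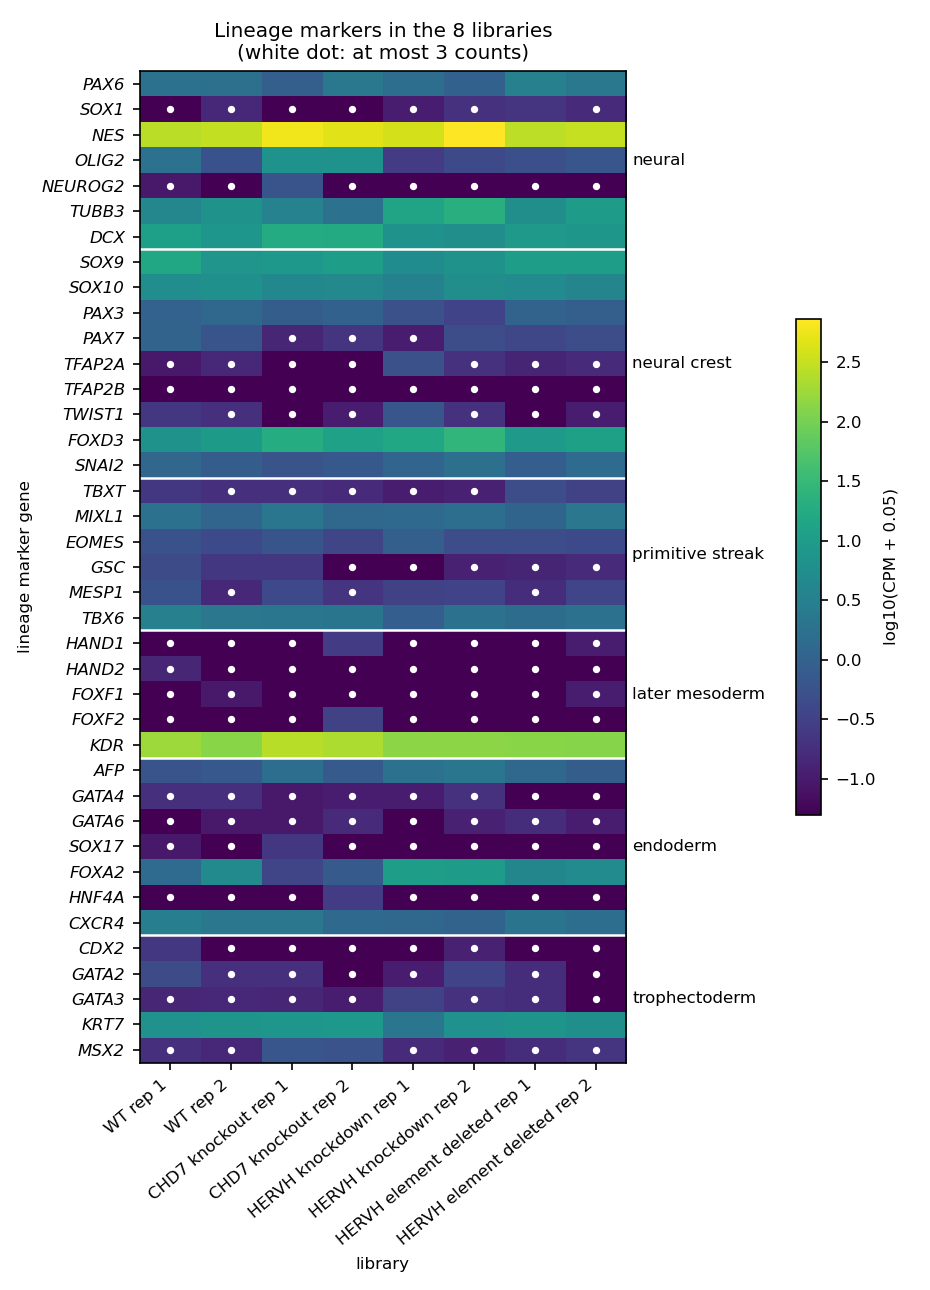
Level of the 39 lineage markers (rows, grouped by lineage) in the 8 libraries (columns) as log10(CPM + 0.05), where the offset only keeps zeros on the scale, and a white dot marks a library with at most 3 counts. NES and KDR stand out as the brightest rows in all 8 libraries, while TFAP2B, HAND2, FOXF1, GATA4 and GATA6 carry a dot in each.

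The lineages differed in how many of their markers could be tested. In the neural group 5 of 7 were tested, in the neural crest group 6 of 9, in the primitive streak group 3 of 6, in the endoderm group 3 of 7 and in the trophectoderm group 2 of 5. Only 1 of 5 later mesoderm markers was tested, KDR, which encodes a VEGF receptor. The list's total RNA was concentrated in NES and KDR, as the sum over the 39 genes was 503 to 523 CPM in the WT libraries and 62 to 68.6 CPM without these genes.

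Per length of exons, levels in WT cells spanned from NES to PAX6 and MSX2. The length merges all exons of a gene in an annotation other than the one used for counting, so the order depends partly on it. PAX6, for example, had 1.72 CPM in WT cells over 20639 bases. NES, an intermediate filament of neural progenitors, had 51.9 ± 4.28 RPKM (SD, n = 2) and KDR 25 ± 5.28 RPKM (SD, n = 2). They were followed by FOXD3 (3.15 ± 0.631 RPKM), SOX9 (2.87 ± 1.36), KRT7 (1.69 ± 0.122), SOX10 (1.21 ± 0.0926) and FOXA2 (1.17 ± 0.929), and the remaining 13 tested markers were below 1 RPKM. FOXD3 and SOX9 did not differ beyond their spread, nor did SOX10 and FOXA2. MSX2 was the lowest tested marker at 0.0522 ± 0.0143 RPKM.

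**Figure D2:**
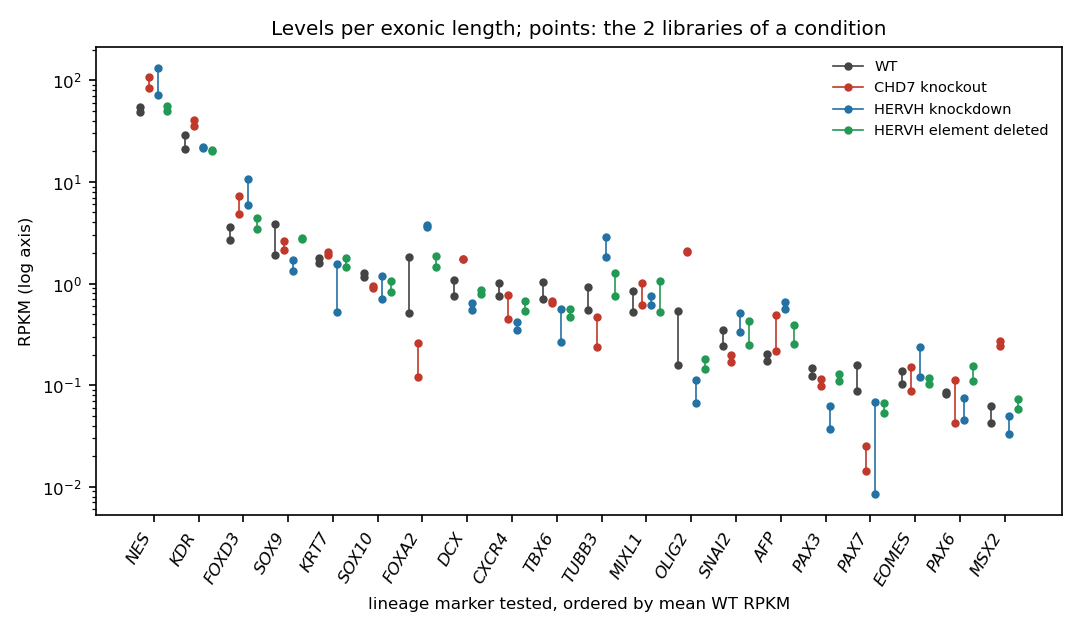
RPKM (log axis) of the 20 tested lineage markers, ordered from left to right by their mean in WT, with 2 points joined by a line for the 2 libraries of each condition. Long lines mark replicates that disagree, as for FOXA2 and OLIG2 in WT and PAX7 in HERVH knockdown.

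Replicates of a condition differed for several markers by more than counting error. Among the 18 markers with at least 20 counts in the WT libraries together, the 95% exact binomial interval of the ratio between replicates excluded 1 for 9, and 3 were over 2-fold apart. OLIG2 was 3.41-fold higher in WT replicate 1 than in replicate 2 (interval 1.71 to 7.40), SOX9 2.01-fold (interval 1.66 to 2.45), and FOXA2 had a ratio of 0.279 (interval 0.180 to 0.423). The intervals cover counting error only. Any comparison with WT for these genes therefore rests on WT libraries that disagree.

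The comparison of each condition with WT asked whether loss of CHD7, knockdown of HERVH RNA or deletion of a single HERVH element was accompanied by a change of lineage markers. With the thresholds of the study, an FDR below 0.01 over all genes and at least 2-fold, edgeR's quasi-likelihood test called 0 of the 20 tested markers in each of the 3 comparisons. The same fit called 0.571% of all 23474 genes in CHD7 knockout, 0.217% in HERVH knockdown and 0.0298% in HERVH element deleted cells. At an unadjusted p below 0.05, 9 of 20 markers passed in CHD7 knockout (6 higher and 3 lower), 11 in HERVH knockdown (5 higher and 6 lower) and 0 in HERVH element deleted cells, against 10.9%, 19% and 2.63% of all genes. DESeq2's Wald test with the same thresholds called 2 of the 17 markers to which it gave an adjusted p in CHD7 knockout, 3 of 14 in HERVH knockdown and 0 of 20 in HERVH element deleted cells, where it called 1.41%, 2.24% and 0.0596% of all such genes. The median log2 fold change over the tested markers was -0.06, -0.33 and -0.06, where the median over all genes was -0.01, 0.04 and -0.02. The markers were chosen with earlier results of these data known, so these shares do not test whether lineage markers changed more than other genes. At an FDR below 0.05 and at least 2-fold, OLIG2 and FOXA2 passed in CHD7 knockout, TUBB3 and FOXD3 in HERVH knockdown, and no marker in HERVH element deleted cells, and the shares of all genes past that threshold were 1.24%, 1.49% and 0.0724%. The 3 comparisons share their WT libraries, and the fit shares its estimate of the spread over all 8 libraries. That estimate includes the HERVH knockdown replicates, which differed most from each other. At an FDR below 0.01 and 2-fold, a fit of only the 4 libraries compared called 2 markers in CHD7 knockout cells, OLIG2 and FOXA2 (edgeR). It called 0 in HERVH knockdown and 0 in HERVH element deleted cells, and the genes called numbered 349, 6 and 6.

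**Figure D3:**
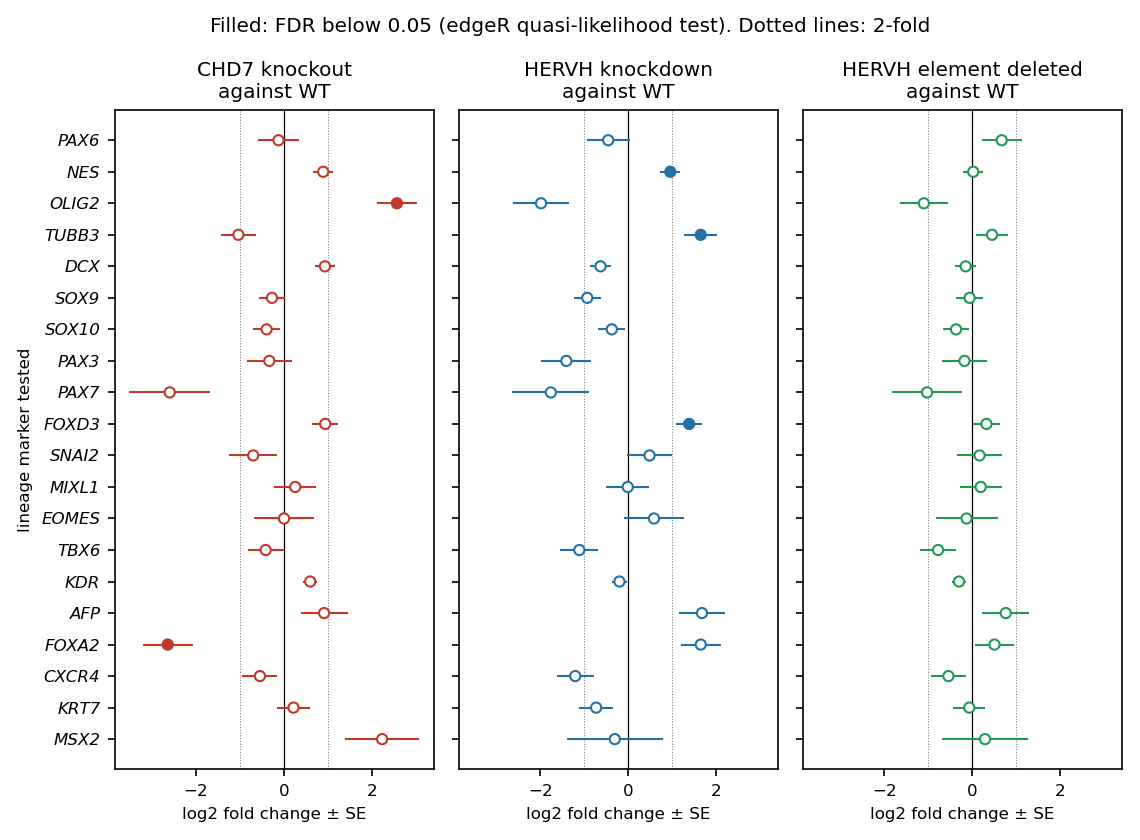
Log2 fold change against WT with its SE (edgeR) for the 20 tested lineage markers, in 3 panels by condition, with dotted lines at 2-fold and filled points for an FDR below 0.05. OLIG2 and FOXA2 are filled in CHD7 knockout, NES, TUBB3 and FOXD3 in HERVH knockdown, and no point is filled in HERVH element deleted cells.

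OLIG2 (ENSG00000205927, chromosome 21, GRCh37 34398243 to 34401504), a bHLH factor of motor neuron and oligodendrocyte progenitors, had the largest difference among markers higher in CHD7 knockout cells. It had 38 and 11 counts in WT cells, 148 and 125 in CHD7 knockout, 4 and 5 in HERVH knockdown and 11 and 11 in HERVH element deleted cells. Both CHD7 knockout libraries were above both WT libraries, both HERVH knockdown libraries were below them, and the HERVH element deleted libraries overlapped the WT range. In CPM the means were 1.13 ± 0.877 in WT and 6.78 ± 0.0822 in CHD7 knockout cells (SD, n = 2). The log2 fold change was 2.57 (SE 0.46, FDR = 0.0121, edgeR) in CHD7 knockout, -1.98 (SE 0.63, FDR = 0.122, edgeR) in HERVH knockdown and -1.10 (SE 0.55, FDR = 1, edgeR) in HERVH element deleted cells. Leaving out WT replicate 2 gave 1.94 with an FDR of 0.121 in CHD7 knockout cells (edgeR), and leaving out either CHD7 knockout library gave an FDR of 0.0968 or 0.0797. Leaving out WT replicate 1 instead gave 3.73 with an FDR of 0.00635, and in 10 of the 15 alternatives OLIG2 passed an FDR below 0.01 and 2-fold.

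FOXA2 (ENSG00000125798, chromosome 20, GRCh37 22561636 to 22566093), a forkhead factor of definitive endoderm and the floor plate, showed the opposite order of conditions. Its counts were 30 and 106 in WT cells, 7 and 13 in CHD7 knockout, 188 and 133 in HERVH knockdown and 93 and 94 in HERVH element deleted cells. The CHD7 knockout libraries lay below the WT range, the HERVH knockdown libraries above it, and the HERVH element deleted libraries overlapped it. The log2 fold change was -2.64 (SE 0.57, FDR = 0.0317, edgeR) in CHD7 knockout, 1.66 (SE 0.45, FDR = 0.0719, edgeR) in HERVH knockdown and 0.51 (SE 0.45, FDR = 1, edgeR) in HERVH element deleted cells. Without WT replicate 2 the value in CHD7 knockout cells was -1.46 with an FDR of 0.393 (edgeR), and leaving out CHD7 knockout replicate 1 or 2 gave an FDR of 0.350 or 0.117. Without WT replicate 1 it was -3.26 with an FDR of 0.003, and FOXA2 passed an FDR below 0.01 and 2-fold in 7 of the 15 alternatives. Genes within 5 Mb of OLIG2 and of FOXA2 had median log2 fold changes of -0.01 and 0.03 in CHD7 knockout cells.

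**Figure D4:**
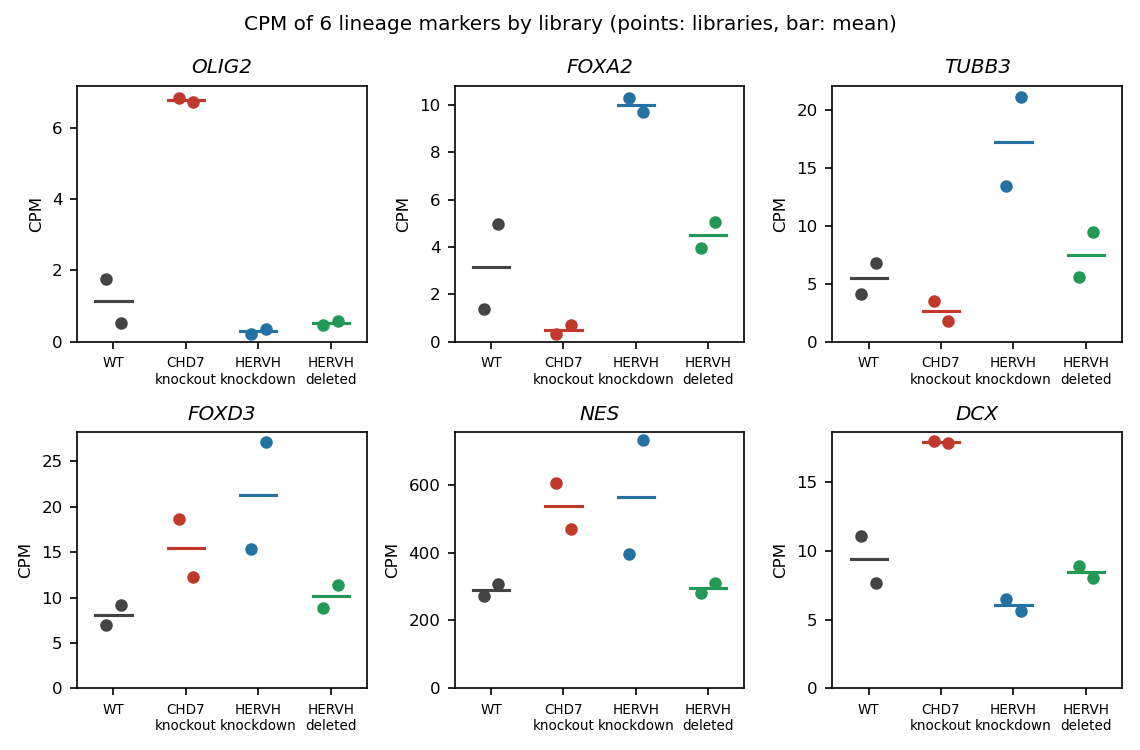
CPM of OLIG2, FOXA2, TUBB3, FOXD3, NES and DCX in each library (points, linear axes from 0) with the mean of each condition (bars). The CHD7 knockout libraries are highest for OLIG2 and DCX and lowest for FOXA2 and TUBB3, and the HERVH knockdown libraries are highest for FOXA2 and TUBB3.

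Among the remaining neural markers, TUBB3 (ENSG00000258947, chromosome 16, GRCh37 89987800 to 90005169), a neuronal beta-tubulin, had 89 and 146 counts in WT cells, 76 and 33 in CHD7 knockout, 245 and 290 in HERVH knockdown and 131 and 175 in HERVH element deleted cells. Both HERVH knockdown libraries were above WT and both CHD7 knockout libraries below it. The log2 fold change was 1.65 (SE 0.37, FDR = 0.0366, edgeR) in HERVH knockdown and -1.03 (SE 0.39, FDR = 0.291, edgeR) in CHD7 knockout cells. Without WT replicate 1 or 2 the value in HERVH knockdown cells was 1.33 or 2.07, and it no longer passed an FDR below 0.05. Without HERVH knockdown replicate 1 or 2 it was 1.90 or 1.29, and with GC correction it was 1.55 (FDR = 0.00307, edgeR). The 53 expressed genes within 5 Mb of TUBB3 lay at a median of -0.63 in CHD7 knockout and 0.29 in HERVH knockdown cells on the same scale. The part of this neighborhood in the differences of TUBB3 was not tested. TUBB3 overlaps ENSG00000198211, with 0 counts, on the same strand, so reads on both may have been left out as ambiguous.

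NES (ENSG00000132688, chromosome 1, GRCh37 156638555 to 156647199) had 5897 and 6543 counts in WT cells, 13080 and 8748 in CHD7 knockout, 7238 and 10031 in HERVH knockdown and 6546 and 5727 in HERVH element deleted cells. Its level was above both WT libraries in both CHD7 knockout and both HERVH knockdown libraries. The difference was just under 2-fold in each, and on the log2 scale it was 0.89 (SE 0.23, FDR = 0.0725, edgeR) in CHD7 knockout and 0.96 (SE 0.23, FDR = 0.0474, edgeR) in HERVH knockdown cells. The latter value was 1.29 without HERVH knockdown replicate 1 and 0.45 without replicate 2, so its size depended on which library was used. With GC correction the value was 1.02 in CHD7 knockout (FDR = 0.000144, edgeR) and 0.81 in HERVH knockdown cells (FDR = 0.00157, edgeR). In CHD7 knockout cells NES passed an FDR below 0.01 and 2-fold in 1 of 15 alternatives, the GC correction. The 124 expressed genes within 5 Mb of NES lay at a median of 0.51 on the same scale in CHD7 knockout cells, and 553 genes of the long arm of chromosome 1 beyond its heterochromatin had a median of 0.52, against -0.06 for 727 genes on the rest of the chromosome. The part of this span in the difference of NES was not tested.

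DCX, a microtubule protein of migrating neurons, had 240 and 164 counts in WT cells, 389 and 332 in CHD7 knockout, 119 and 77 in HERVH knockdown and 208 and 149 in HERVH element deleted cells. It was above the WT range in CHD7 knockout (log2 fold change 0.93, FDR = 0.0690, edgeR) and below it in HERVH knockdown cells (-0.63, FDR = 0.192, edgeR). PAX6, a paired-box factor of neuroectoderm and eye, had 38 and 36 counts in WT cells, 19 and 43 in CHD7 knockout, 28 and 13 in HERVH knockdown and 75 and 42 in HERVH element deleted cells. Its FDR was at least 0.658 in each comparison (edgeR), and it overlaps ELP4, with 154 to 506 counts, on the opposite strand. SOX1, a factor of early neuroectoderm, had at most 4 counts in any library. NEUROG2, a proneural factor, had 12 counts in CHD7 knockout replicate 1, 1 in WT replicate 1 and 0 in the other 6 libraries, so it exceeded the floor in a single library. The ratio of its summed counts in CHD7 knockout to WT, 12.8 (95% exact interval 1.90 to 549, counting error only), rests on that library. Ratios of this kind were computed only for picked markers and conditions. An interval that excludes 1 there describes counts and is no test.

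Of the neural crest markers, FOXD3 (ENSG00000187140, chromosome 1, GRCh37 63788238 to 63790799), a forkhead factor of neural crest that is also known from pluripotent cells, was with SOX9 the most abundant per length in WT cells. Its counts were 150 and 197 in WT cells, 404 and 228 in CHD7 knockout, 280 and 373 in HERVH knockdown and 208 and 211 in HERVH element deleted cells. Both CHD7 knockout and both HERVH knockdown libraries were above the WT range. The log2 fold change was 1.39 (SE 0.30, FDR = 0.0332, edgeR) in HERVH knockdown and 0.94 (SE 0.30, FDR = 0.170, edgeR) in CHD7 knockout cells. Without WT replicate 1 or 2 the value in HERVH knockdown cells was 1.19 or 1.61, and it no longer passed an FDR below 0.05. Without HERVH knockdown replicate 1 or 2 it was 1.70 or 0.92, so its size depended on which library was used. The exons of FOXD3 are 66.2% GC, and with GC correction the value in HERVH knockdown cells was 1.16 (FDR = 0.00223, edgeR). The value in CHD7 knockout cells was then 1.15 (FDR = 0.00201, edgeR). There FOXD3 passed an FDR below 0.01 and 2-fold in 1 of 15 alternatives, the GC correction. FOXD3 overlaps FOXD3-AS1 on the opposite strand, which had 510 to 1154 counts, and the strand setting of the counting is not given in the sources used here, so reads of this pair may not have been kept apart.

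Start regions are shown for FOXD3 and TUBB3, the markers past an FDR of 0.05 and 2-fold in HERVH knockdown cells. AFP, the tested marker with CPM above the WT range in all 3 conditions, is shown as well. Their CpG content was counted in 300-base windows of RefSeq start sites on GRCh38.p14 (250 bases before to 50 after the start, gene strand). The dinucleotide CG, which reads the same on both strands, is in capitals. The median was 14 CG over all 35116 windows and 18 over the 50 windows found for 28 of the 39 markers. FOXD3 had 29, TUBB3 had 9 and 47 at 2 starts, and AFP had 1, a count that 96.0% of all windows reach or exceed. These counts describe the letters and no measurement of these libraries.
FOXD3, chr1:63322317-63322616, plus strand: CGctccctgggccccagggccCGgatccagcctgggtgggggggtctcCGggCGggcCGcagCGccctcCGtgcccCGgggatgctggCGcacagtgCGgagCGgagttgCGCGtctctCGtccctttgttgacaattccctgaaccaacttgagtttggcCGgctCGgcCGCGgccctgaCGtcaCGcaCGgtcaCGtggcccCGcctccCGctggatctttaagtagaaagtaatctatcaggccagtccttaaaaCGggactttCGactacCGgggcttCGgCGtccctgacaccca
TUBB3, chr16:89921675-89921974, plus strand: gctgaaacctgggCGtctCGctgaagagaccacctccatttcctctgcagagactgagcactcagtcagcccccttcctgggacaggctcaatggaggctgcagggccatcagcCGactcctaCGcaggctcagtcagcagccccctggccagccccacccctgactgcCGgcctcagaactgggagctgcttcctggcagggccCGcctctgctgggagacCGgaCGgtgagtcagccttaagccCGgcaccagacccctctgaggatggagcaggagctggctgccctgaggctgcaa
TUBB3, chr16:89923092-89923391, plus strand: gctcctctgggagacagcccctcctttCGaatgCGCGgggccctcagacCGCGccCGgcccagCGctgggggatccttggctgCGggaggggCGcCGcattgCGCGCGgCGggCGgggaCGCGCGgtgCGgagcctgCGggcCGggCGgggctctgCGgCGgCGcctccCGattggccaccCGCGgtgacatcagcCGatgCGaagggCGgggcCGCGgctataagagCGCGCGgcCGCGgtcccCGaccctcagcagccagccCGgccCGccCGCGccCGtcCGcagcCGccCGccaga
AFP, chr4:73435971-73436270, plus strand: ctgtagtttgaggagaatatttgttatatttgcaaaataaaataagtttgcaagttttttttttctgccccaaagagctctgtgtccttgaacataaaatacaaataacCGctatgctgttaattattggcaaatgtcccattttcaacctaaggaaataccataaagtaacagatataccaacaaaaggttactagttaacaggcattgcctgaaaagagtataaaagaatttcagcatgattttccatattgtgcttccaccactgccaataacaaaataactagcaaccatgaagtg

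SOX9, SOX10 and SNAI2, regulators of crest formation and migration, and PAX3 and PAX7, paired-box factors of the neural plate border, were tested as well. SOX9 had 326 and 160 counts in WT cells and 95 and 92 in HERVH knockdown cells, where it was below the WT range (log2 fold change -0.93, FDR = 0.137, edgeR). PAX3 had 21 and 25 counts in WT cells and 9 and 4 in HERVH knockdown cells (-1.40, FDR = 0.206, edgeR). PAX7 lay below the WT range in all 3 conditions, with 22 and 12 counts in WT cells, 2 and 3 in CHD7 knockout, 1 and 6 in HERVH knockdown and 8 and 8 in HERVH element deleted cells. The CHD7 knockout libraries were thus at the floor, and the ratio of summed PAX7 counts to WT, scaled for depth, was 0.157 (95% exact interval 0.0480 to 0.404, counting error only), while its FDR was 0.236 (edgeR). SOX10 had 120 and 132 counts in WT cells and 62 to 120 in the other conditions, and SNAI2 had 12 to 26 counts in all libraries. Neither had an FDR under 0.549 in any comparison (edgeR). SOX10 overlaps POLR2F on the opposite strand, with 472 to 833 counts. TFAP2A and TWIST1 exceeded the floor in both libraries of no condition, and their highest counts, 9 and 11, were in HERVH knockdown replicate 1. The ratio of summed counts in HERVH knockdown to WT was 4.93 for TFAP2A (95% exact interval 1.30 to 27.5), and replicate 2 had 2 counts. For TWIST1 the interval held 1 (0.926 to 7.40).

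Primitive streak markers stayed low in all conditions. MIXL1, a homeobox factor of the streak, had 21 to 45 counts and EOMES 6 to 16, and both overlapped the WT range in all 3 conditions. TBX6, a T-box factor of paraxial mesoderm, had 70 and 47 counts in WT cells, 45 and 37 in CHD7 knockout, 15 and 24 in HERVH knockdown and 34 and 32 in HERVH element deleted cells. It was below WT in all 3 conditions, with log2 fold changes of -0.41, -1.11 and -0.77 and FDRs of 0.839, 0.189 and 1 (edgeR). TBXT, the brachyury gene, had 4 and 3 counts in WT cells, 10 and 5 in HERVH element deleted and at most 3 in the other 4 libraries. The ratio of its summed counts in HERVH element deleted cells to WT was 2.20 (95% exact interval 0.844 to 6.38). GSC, an organizer factor, had 9 and 4 counts in WT cells and 4 and 0 in CHD7 knockout cells. It had 0 and 1 counts in HERVH knockdown and 2 and 2 in HERVH element deleted cells. The ratio of its summed counts to WT was computed for HERVH knockdown alone, at 0.104 (95% exact interval 0.00244 to 0.689, counting error only). MESP1, a factor of cardiac mesoderm, had 2 to 11 counts.

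In later mesoderm, KDR had 3940 and 2877 counts in WT cells, 5543 and 4143 in CHD7 knockout, 2517 and 1906 in HERVH knockdown and 3065 and 2343 in HERVH element deleted cells. In CPM it was above WT in CHD7 knockout (log2 fold change 0.60, FDR = 0.0966, edgeR), overlapped WT in HERVH knockdown and was below WT in HERVH element deleted cells (-0.30, FDR = 1, edgeR). HAND1 and FOXF2 exceeded the floor in CHD7 knockout replicate 2 alone, with 4 and 5 counts. HNF4A, a hepatocyte factor of the endoderm list, also had 4 counts in that library and 0 in the other 7.

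AFP, the fetal serum protein made by visceral endoderm and liver, was the tested marker with CPM above the WT range in all 3 conditions. Its counts were 12 and 14 in WT cells, 34 and 13 in CHD7 knockout, 33 and 29 in HERVH knockdown and 29 and 15 in HERVH element deleted cells. CHD7 knockout replicate 2 was above WT replicate 2 only after scaling for depth, at 0.699 against 0.655 CPM. The CHD7 knockout replicates differed 2.25-fold from each other (interval 1.16 to 4.64, counting error only). The log2 fold changes were 0.92, 1.68 and 0.77 with FDRs of 0.620, 0.113 and 1 (edgeR). CXCR4, a chemokine receptor on definitive endoderm that is also present on other cells, had 64 and 47 counts in WT cells and 22 and 14 in HERVH knockdown cells, below the WT range (-1.20, FDR = 0.151, edgeR). SOX17 had 4 counts in CHD7 knockout replicate 1, 1 in WT replicate 1 and 0 elsewhere.

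Of the trophectoderm and amnion markers, KRT7, a keratin of simple epithelia, had 139 and 152 counts in WT cells, 165 and 151 in CHD7 knockout, 38 and 86 in HERVH knockdown and 167 and 107 in HERVH element deleted cells. Both HERVH knockdown libraries were below WT and differed 3-fold from each other (ratio 0.332, 95% exact interval 0.221 to 0.492). The log2 fold change in HERVH knockdown cells was -0.72 (FDR = 0.329, edgeR). It was -1.71 without HERVH knockdown replicate 2, and over all 15 alternatives it ranged from -1.71 to -0.16. MSX2, a homeobox factor downstream of BMP, was the only marker of the list at the floor in both WT libraries and above it in both libraries of another condition. It had 3 and 2 counts in WT cells, 13 and 10 in CHD7 knockout, 2 and 1 in HERVH knockdown and 3 and 3 in HERVH element deleted cells. The ratio of summed counts in CHD7 knockout to WT was 4.92 (95% exact interval 1.83 to 16.6, counting error only), and the FDR was 0.288 (edgeR). CDX2, GATA2 and GATA3, transcription factors of trophectoderm, had at most 4, 9 and 5 counts in any library.

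Counts of markers outside the WT range are to be read against all genes. In CHD7 knockout cells 8 of the 20 tested markers had both libraries above both WT libraries and 7 had both below, where 21.5% and 22.4% of all genes did. In HERVH knockdown cells 5 were above and 9 below, against 22.5% and 22.3%, and in HERVH element deleted cells 2 were above and 5 below, against 17.7% and 20.3%. With 20 markers, these counts describe the tested genes, not the list as a whole, and were not tested. AFP, PAX7 and TBX6 lay outside the WT range on the same side in every condition, and these comparisons share their WT libraries. The share of all genes that did so is not given here.

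The changed conditions were also compared directly with each other in the same fit, by contrasts that do not subtract WT. Between CHD7 knockout and HERVH knockdown cells 4 of the 20 tested markers passed an FDR below 0.01 and 2-fold, OLIG2 and DCX higher and FOXA2 and TUBB3 lower in CHD7 knockout cells, where 2.66% of all genes passed. Between CHD7 knockout and HERVH element deleted cells 2 passed, OLIG2 higher and FOXA2 lower in CHD7 knockout cells, where 1.12% of all genes passed. Between HERVH knockdown and HERVH element deleted cells 0 passed by edgeR, where 0.204% of all genes did, and 6 of the 20 had an unadjusted p below 0.05, as did 19.1% of all genes. The values are given in the closing section, as this comparison was added after seeing the data.

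A wider list of 66 other lineage genes was examined in the same fit, of which 64 were matched, 30 were tested and 18 were at the floor in all 8 libraries. It too was chosen with earlier results of these data known. At an FDR below 0.01 and 2-fold, 0 passed in CHD7 knockout, 1 in HERVH knockdown and 0 in HERVH element deleted cells by edgeR, and 10, 7 and 6 of the 30 had an unadjusted p below 0.05, where 10.9%, 19% and 2.63% of all genes did. The gene that passed was MAP2, a microtubule protein of neuronal dendrites, which fell in HERVH knockdown cells. It had 862 and 1003 counts in WT cells, 526 and 385 in CHD7 knockout, 316 and 238 in HERVH knockdown and 1013 and 894 in HERVH element deleted cells, and its log2 fold change in HERVH knockdown was -1.32 (SE 0.18, FDR = 0.00603, edgeR). The direction held without each library, and the FDR was 0.0644 or 0.0365 without WT replicate 1 or 2, 0.0143 or 0.0129 without CHD7 knockout replicate 1 or 2, and 0.0452 in a fit of the 4 libraries compared (edgeR). MAP2 and TUBB3, both neuronal cytoskeleton genes, thus lay on opposite sides of WT in HERVH knockdown cells.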

How the data were processed

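RNA was sequenced from rRNA-depleted, strand-specific libraries of H9 cells. The authors mapped reads to hg19 with the Ensembl annotation GRCh37.75 using STAR and counted them per gene with HTSeq-count. The files as deposited hold whole-number counts with no normalization. Tool versions and the strand setting are not given in the sources used here. Of the reads that were counted on a gene, matched no counted feature or were ambiguous, 34.9% to 42.5% matched no feature. Another 3.81% to 4.75% were ambiguous, and both kinds were left out.

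Libraries were grouped by their labels. Symbols, positions and exon lengths came from an annotation on GRCh37, which matched 55538 of 57773 genes. TMM scaling, edgeR's default expression filter and its quasi-likelihood test (edgeR 4.0.16, R 4.3.3) were applied to the 8 libraries together, by group alone (4 residual degrees of freedom), and Benjamini-Hochberg adjustment ran over the 23474 genes tested. A call needed an FDR below 0.01 and at least 2-fold, and 0.05 was used beside it. RPKM is CPM per kilobase of merged exons, whose lengths came from an annotation other than the one used for counting. Ratios of counts carry 95% exact binomial intervals. Ratios of summed counts to WT were computed only for markers and conditions picked from the list. DESeq2 1.42.0, RLE scaling, other filters, a fit of 4 libraries, a replicate block, a GC correction and each library left out were tried, and direct comparisons between changed conditions and a crossed block were added after seeing the data. The procedure was tested on simulated data. All listed markers were named, and of the wider list those called; SIX3, LHX2, SIX6, CER1, EDNRB, WNT3 and HHEX were named after their values were seen. The markers and lists were chosen with earlier results of these data known. RefSeq windows on GRCh38.p14 were used for sequence alone.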

Additional observations from a re-analysis of the deposited data

Results flagged for a closer look

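Conditions other than WT were compared directly in the same fit, a comparison added after seeing the data, and 6 differences passed an FDR below 0.01 and 2-fold. In CHD7 knockout against HERVH knockdown cells, 2.66% of all 23474 genes passed. There OLIG2 differed by a log2 value of 4.55 (SE 0.58, FDR = 0.000478, edgeR), with 148 and 125 counts against 4 and 5. FOXA2 differed by -4.30 (SE 0.56, FDR = 0.00055, edgeR), with 7 and 13 counts against 188 and 133. TUBB3 differed by -2.69 (SE 0.39, FDR = 0.00123, edgeR) and DCX by 1.56 (SE 0.25, FDR = 0.00201, edgeR). In CHD7 knockout against HERVH element deleted cells, where 1.12% of all genes passed, OLIG2 differed by 3.67 (FDR = 0.0013, edgeR) and FOXA2 by -3.15 (FDR = 0.00687, edgeR). For each of these genes the libraries of the conditions compared did not overlap. No marker passed between HERVH knockdown and HERVH element deleted cells, where 0.204% of all genes did.

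Each difference was recomputed under 11 alternatives, and all kept their direction. The difference of OLIG2 between CHD7 knockout and HERVH knockdown passed in 11 of 11. The FDR rose to 0.0254 for TUBB3 without CHD7 knockout replicate 2, to 0.0129 for FOXA2 without CHD7 knockout replicate 1 and to at most 0.0219 for DCX without either CHD7 knockout library. Against HERVH element deleted cells, OLIG2 passed in 8 (highest FDR 0.0190) and FOXA2 in 7 (highest FDR 0.121). The calls of OLIG2 were lost without either CHD7 knockout library or without HERVH element deleted replicate 1, and those of FOXA2 without any of the 4 libraries compared. Against WT, the genes near TUBB3 had a median log2 fold change of -0.63 in CHD7 knockout and 0.29 in HERVH knockdown cells. Their part in the difference of TUBB3 was not tested. With 2 libraries in each condition, no test for outlying samples was made.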

How the results depend on the processing

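Over the 60 log2 fold changes of tested markers, 839 alternative values kept direction and side of the threshold, 31 kept direction and passed it, and 26 reversed. No marker passed in HERVH element deleted cells under any alternative run. Markers called in CHD7 knockout cells were 0 in the fit reported, 1 with RLE scaling, 2 with DESeq2, without a filter, in the fit of 4 libraries and at an FDR below 0.05, 4 with GC correction, and 0 to 2 with each library left out. Those called with GC correction were OLIG2, FOXA2, NES and FOXD3. In HERVH knockdown cells they were 0 in the fit reported, 3 with DESeq2 and without a filter, 2 with GC correction and at an FDR below 0.05, and 0 to 3 with each library left out. Genes called in CHD7 knockout cells numbered 134, and 286 with DESeq2, 368 without a filter, 349 in the fit of 4 libraries, 314 with GC correction, 290 at an FDR below 0.05 and 26 to 384 with each library left out. In HERVH knockdown cells they numbered 51, and 81 with RLE scaling, 373 with DESeq2, 506 without a filter, 6 in the fit of 4 libraries, 360 with GC correction, 350 at an FDR below 0.05 and 2 (without WT replicate 1) to 825 (without HERVH knockdown replicate 1) with each library left out. In HERVH element deleted cells they numbered 7, and 14 with DESeq2, 30 without a filter, 18 with GC correction, 17 at an FDR below 0.05 and 5 to 21 with each library left out. The causes were not tested. Where a library left out leaves 1 in its condition, that library is assumed to vary like the others. Markers at the floor in all libraries were 5, and 1, 12 and 16 with a floor of 0, 5 and 10 counts, and 5 to 8 with each library left out.

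With the replicate number as a block, 153, 70 and 6 genes and 0, 0 and 0 markers were called. The labels share replicate numbers without stating a shared batch, and with 2 replicates the numbers were not taken to pair the samples. Same-numbered deviations correlated positively among the 3 conditions other than CHD7 knockout (0.354, 0.514 and 0.359) and negatively between each of these and CHD7 knockout cells (-0.277, -0.138 and -0.272). A block with the CHD7 knockout numbers crossed, added after seeing the data, called 207 genes and 1 marker.

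Reversals came from 16 of the 60 values. On the log2 scale, EOMES in CHD7 knockout cells was -0.025 with the block, and in HERVH element deleted cells SOX9 was 0.00147 and KRT7 0.067 with GC correction. The other reversals appeared with a library left out. CHD7 knockout values then ranged from -0.94 to 0.43 for PAX6, -0.69 to 0.35 for SOX9, -0.17 to 0.66 for MIXL1 and -0.44 to 0.35 for EOMES. HERVH knockdown values ranged from -0.30 to 0.36 for MIXL1, -0.0648 to 0.97 for EOMES and -0.40 to 0.0387 for KDR. HERVH element deleted values ranged from -0.0355 to 0.11 for NES, -1.72 to 0.0612 for OLIG2, -0.39 to 0.17 for DCX, -0.47 to 0.56 for SOX9, -0.25 to 0.53 for SNAI2, -0.37 to 0.64 for MIXL1, -0.33 to 0.13 for EOMES, -0.11 to 1.70 for FOXA2 and -0.21 to 0.0895 for KRT7. The 19 markers that were not tested had at most 12 counts in any library, and their ratios carry counting error only.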

Other observations

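Among the wider lineage genes, 3 homeobox genes of the forebrain and eye field, chosen after their values were seen, had few or no counts in CHD7 knockout cells and more counts in HERVH element deleted cells than in WT. SIX3 had 18 and 17 counts in WT, 0 and 0 in CHD7 knockout, 4 and 9 in HERVH knockdown and 57 and 47 in HERVH element deleted cells. Its mean level in WT was 5.42-fold the floor of 3 counts per library in CHD7 knockout cells, without allowance for error in the WT counts. The fitted log2 fold change of SIX3 in CHD7 knockout cells, which rests on 0 counts, was -7.01 (SE 1.24, FDR = 0.0127, edgeR). In HERVH element deleted cells it was 1.60 (FDR = 1, edgeR). Without any one of the WT or CHD7 knockout libraries, the FDR of SIX3 in CHD7 knockout cells was 0.0556 to 0.114 (edgeR). LHX2 had 15 and 26 counts in WT, 4 and 0 in CHD7 knockout, 14 and 30 in HERVH knockdown and 64 and 61 in HERVH element deleted cells. SIX6 had 12 and 12, 0 and 4, 8 and 6, and 21 and 19 counts in the same order. LHX2 and SIX6 had FDRs of 0.0898 and 0.318 in CHD7 knockout cells (edgeR).

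In HERVH knockdown cells 4 of the 30 tested genes of the wider list passed an FDR below 0.05 and 2-fold, where 1.49% of all genes did. They were MAP2 and EDNRB, an endothelin receptor of neural crest, which were lower, and CER1, a secreted antagonist of Nodal and BMP, and WNT3, a ligand of the primitive streak, which were higher. CER1 had 7 and 4 counts in WT cells, 48 and 11 in CHD7 knockout, 39 and 38 in HERVH knockdown and 1 and 2 in HERVH element deleted cells (log2 fold change in HERVH knockdown 3.23, SE 0.69, FDR = 0.0309, edgeR). EDNRB had 796 and 369 counts in WT cells and 150 and 100 in HERVH knockdown cells (-1.80, FDR = 0.0141, edgeR), and WNT3 had 70 and 60 against 178 and 91 (1.44, FDR = 0.0303, edgeR). Without WT replicate 1 the FDR was 0.201 for EDNRB, 0.244 for WNT3 and 0.240 for CER1, and without WT replicate 2 it was 0.00719, 0.129 and 0.138 (edgeR). HHEX, a homeobox gene of anterior endoderm like CER1, lay on the other side of WT, with 35 and 12 counts in WT cells and 2 and 6 in HERVH knockdown cells (-2.05, FDR = 0.181, edgeR).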
